A study of Mus musculus with 25 samples.

Results

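Leukemia inhibitory factor (LIF) keeps mouse embryonic stem (ES) cells undifferentiated through the transcription factor STAT3. The genes described here are 9 components and targets of this pathway: the receptor chains *Lifr* and *Il6st*, the kinase *Jak1*, the factor *Stat3*, and the STAT3-responsive genes *Socs3*, *Gbx2*, *Pim1*, *Pim3* and *Junb*. They were chosen by symbol as genes of the pathway, with earlier results of these data known, out of 48440 genes in the count table, and all 9 were found there. Counts of members called are therefore descriptions and not independent evidence. *Gbx2* also entered because the study had picked it as a β-catenin target from its dose response in the same CHIR99021 libraries, so its dose direction in particular was fixed by that choice.

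The series asked how strongly different missense mutations in the phosphodegron of β-catenin, encoded by *Ctnnb1*, activate its targets in mouse ES cells. Bulk 3′ RNA sequencing with unique molecular identifiers (mcSCRB-seq) was done on 25 libraries of E14 cells, a feeder-free ES cell line grown on gelatin in serum with LIF. Of these, 10 libraries were of wild-type cells given 0, 2.5, 5, 7.5 or 10 µM CHIR99021 for 48 h, with 2 libraries per dose. CHIR99021 inhibits GSK3β, the kinase that marks β-catenin for degradation. The other 15 libraries were of clones cultured for 48 h without CHIR99021, each a line grown from a picked colony and heterozygous for 1 of 11 mutations: S37A (clone A10), S37C (G12), S37F (H2 and G1), S37Y (A5), T41A (C1 and E6), T41I (B9 and A6), T41N (D3), T41S (H8), S45C (D3), S45F (C1 and D9) and S45P (G5). The clones had first been targeted with a puromycin selection cassette that was then replaced, a history the wild-type libraries do not share. Because LIF was in every medium, the libraries show the pathway with its ligand supplied and none without it.

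LIF binds a receptor made of LIFR and the shared chain gp130, the product of *Il6st*. The receptor-bound JAK kinases phosphorylate STAT3, which enters the nucleus and turns on genes that hold the ES cell state, together with *Socs3*, whose product shuts the receptor complex down again. In ES cells, GSK3 inhibition and LIF are both used to keep the undifferentiated state, and *Gbx2*, a homeobox factor, is known as a STAT3 target that can sustain self-renewal.

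The mutation effect score (MES) is the study's measure of how strongly a mutation activates a β-catenin reporter in other ES cells, so it uses none of these libraries. The study's tables give 2 values for T41A, of which that in the table over all substitutions was used, and the other value changed no call of a member. With the study's limit of 18000, 9 clones were in the strong class (all at codon 37, T41A and T41I) and 6 in the weak class (T41S, S45C, T41N, S45P and S45F). Libraries held 306157 to 2083398 counts. Levels are in CPM, the count of a gene divided by the total of its library and multiplied by 1000000. Every member had a count in all 25 libraries and passed the filter of every fit, and the lowest single count was 6, for *Il6st* in 10 µM replicate 1, the shallowest library.

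As checks, *Axin2*, a direct target of β-catenin, had 13.8 and 15.8 CPM in the untreated libraries, 98.0 to 134 CPM at 7.5 and 10 µM and 22.6 to 87.4 CPM in the clones, and *Ctnnb1* passed no test. Markers of ES cells were present in every library. The summed level of 6 of them (*Pou5f1*, *Nanog*, *Sox2*, *Zfp42*, *Esrrb*, *Fgf4*) was 1754 and 1800 CPM in the untreated libraries, 1191 to 1579 CPM in the treated ones, 890.2 to 2605 CPM in weak and 1940 to 2739 CPM in strong clones. The summed level of 5 mesendoderm markers was 16.3 and 19.1 CPM without CHIR99021 and 48.9 to 150.3 CPM with it, while that of 4 neural markers was 48.4 and 50.0 CPM without and 2.90 to 9.91 CPM with it. Among the clones, 6 primitive endoderm markers summed to 2.66 to 244 CPM. The T41S clone H8 had the lowest ES cell sum and the highest sum of 5 fibroblast markers, 166 CPM. The share of counts on mitochondrial genes was 0.485% to 0.562% in 4 CHIR99021 libraries (0 µM replicate 2, 2.5 µM replicate 1, 5 µM replicate 1 and 10 µM replicate 1), 0.986% to 1.46% in the other 6 and 1.53% to 2.52% in the clones. In bulk libraries, fewer cells of a type and less RNA per cell cannot be told apart. What part these differences had in the results below was not tested, beyond the alternatives given with them.

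With CHIR99021 dose, transcript levels of the members changed in both directions, and activity of the pathway itself was not measured. Per 10 µM, *Gbx2*, *Socs3* and *Stat3* rose while *Lifr* and *Pim3* fell, and *Il6st*, *Jak1*, *Pim1* and *Junb* did not pass the test. Rising members were 3 of 9, against 5.89% of the 10033 genes tested, and falling members 2 of 9, against 6.63%. In either direction 5 of 9 members were called, against 12.5% of genes. The median change of the 9 was 0.09 on the log2 scale, beside 0.01 over all genes tested. Of the 6 ES cell markers, *Nanog* (−0.56), *Sox2* (−0.49), *Zfp42* (−0.46) and *Fgf4* (−1.31) fell with dose, and their part in the members' slopes was not tested. Changes come from edgeR's quasi-likelihood test of the slope on dose, with p-values adjusted over all genes tested. In every fit the standard error (SE) was derived as the size of the change divided by the square root of the test's F value. The labels do not say whether libraries of a dose came from separate cultures, so these p-values measure only the spread between the libraries, which may be technical.

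Both receptor chains were measured. *Lifr* (chr15:7090614-7197489, GRCm38, plus strand), the LIF-binding chain, had 45.1 and 50.0 CPM in the untreated libraries, 37.4 and 31.3 CPM at 2.5 µM, 16.5 and 26.4 CPM at 5 µM, 22.5 and 24.8 CPM at 7.5 µM and 32.7 and 23.3 CPM at 10 µM. Both untreated libraries were above all 8 treated ones, and from 5 µM on the level stayed low without a further ordered fall. *Lifr* fell by 1.08 on the log2 scale per 10 µM (SE 0.25, adjusted p = 0.00366), and it kept this call without any 1 library. Without both untreated libraries the slope was −0.60 (adjusted p = 0.649).

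*Il6st* (chr13:112464070-112510086, plus strand), the signalling chain gp130, had 35.9 and 27.6 CPM untreated, 40.2 and 35.1 CPM at 2.5 µM, 31.3 and 57.6 CPM at 5 µM, 46.4 and 49.6 CPM at 7.5 µM and 19.6 and 45.2 CPM at 10 µM. The treated libraries spread across the untreated ones, and the lowest rested on 6 counts, with a Wilson 95% interval of 8.98 to 42.8 CPM that covers counting error only. Its slope was 0.43 (SE 0.25, adjusted p = 0.293).

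*Jak1* (chr4:101152367-101265282, minus strand), the receptor-bound kinase, had 116 and 109.5 CPM untreated, 83.3 and 101 CPM at 2.5 µM, 90.5 and 81.1 CPM at 5 µM, 113 and 105 CPM at 7.5 µM and 65.3 and 92.6 CPM at 10 µM. The treated libraries reached into the untreated range at 7.5 µM. Its slope was −0.21 (SE 0.16, adjusted p = 0.455).

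*Stat3* (chr11:100885098-100939540, minus strand), the transcription factor itself, had 83.2 and 89.3 CPM untreated, 79.0 and 99.1 CPM at 2.5 µM, 114 and 113 CPM at 5 µM, 136 and 122 CPM at 7.5 µM and 84.9 and 111 CPM at 10 µM. The 4 libraries at 5 and 7.5 µM were above both untreated ones, but 10 µM replicate 1 was back in the untreated range. *Stat3* rose by 0.49 on the log2 scale per 10 µM (SE 0.16, adjusted p = 0.0471). This call was at the edge of the threshold and did not hold without any 1 of 7 libraries (both untreated, both 2.5 µM, 5 µM replicate 2 and both 7.5 µM), where the slope was 0.39 to 0.50 and the adjusted p 0.0581 to 0.282. It also did not hold under DESeq2 (adjusted p = 0.108) or with the mitochondrial set of the library as a factor (0.45, adjusted p = 0.0552).

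*Socs3* (chr11:117966079-117970047, minus strand) encodes the feedback inhibitor of the receptor complex, and its transcript is widely used as a readout of STAT3 activity. It is also the only member with a STAT motif, TTCNNNGAA, in the 250 bases before its start in RefSeq's GRCm38.p6 annotation. The motif is its own reverse complement. All 9 members matched that table, with 11 promoters, and the motif was in 1 of the 11, against 7.02% of 32851 promoters. The 29 bases around it are shown because they are the only such match among the members. They lie on the minus strand at chr11:117969502-117969530, with the motif, in capitals, from 154 to 146 bases before the start. RefSeq's start lies inside the gene as GENCODE draws it, and so does the stretch shown here:
Socs3: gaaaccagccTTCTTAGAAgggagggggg
The TCF/LEF motif, taken as CTTTGAA or CTTTGAT or CTTTGTA or CTTTGTT and searched on both strands, was in 0 of the 11 promoters, against 14.8% of all promoters. A match is a description of letters in this window and no match says only that these letters are not in it.

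*Socs3* had 242 and 216 CPM untreated, 221 and 242 CPM at 2.5 µM, 265 and 265 CPM at 5 µM, 284 and 273 CPM at 7.5 µM and 300.5 and 292 CPM at 10 µM. At 2.5 µM the levels overlapped the untreated ones, and the 6 libraries from 5 µM up were all above them. *Socs3* rose by 0.39 on the log2 scale per 10 µM (SE 0.12, adjusted p = 0.0212). The call did not hold without untreated replicate 1 (0.44, adjusted p = 0.0534) or replicate 2 (0.36, adjusted p = 0.0856), and in the 6 libraries of higher mitochondrial share alone the slope was 0.31 (adjusted p = 0.129).

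*Gbx2* (chr1:89927956-89931179, minus strand), the homeobox factor, showed the steepest response of the 9. It had 21.2 and 15.9 CPM untreated, 35.9 and 28.2 CPM at 2.5 µM, 67.4 and 64.3 CPM at 5 µM, 86.3 and 64.5 CPM at 7.5 µM and 88.2 and 86.6 CPM at 10 µM. Levels at 2.5 µM were above the untreated ones without overlap, and those at 5 µM were above those at 2.5 µM. The libraries at 5 and 7.5 µM were not separated. *Gbx2* rose by 2.12 on the log2 scale per 10 µM (SE 0.24, adjusted p = 3.05e-07), and was called without any 1 library, with slopes of 1.97 to 2.38. The study picked *Gbx2* from its dose response in these same libraries, so these values are a description and not independent evidence.

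*Pim1* and *Pim3* encode serine/threonine kinases that STAT3 induces and that favour ES cell survival and self-renewal. *Pim1* (chr17:29490753-29496112, plus strand) had 226 and 214 CPM untreated, 177 and 197 CPM at 2.5 µM, 227 and 201 CPM at 5 µM, 221 and 221 CPM at 7.5 µM and 225 and 221 CPM at 10 µM. The 4 libraries at the highest doses were inside the untreated range. Its slope was 0.09 (SE 0.12, adjusted p = 0.690).

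*Pim3* (chr15:88862186-88865726, plus strand) had 173 and 186 CPM untreated, 106 and 159 CPM at 2.5 µM, 143 and 119 CPM at 5 µM, 87.1 and 85.3 CPM at 7.5 µM and 81.7 and 102 CPM at 10 µM. All 8 treated libraries were below both untreated ones. *Pim3* fell by 1.04 on the log2 scale per 10 µM (SE 0.17, adjusted p = 5.25e-05) and kept the call in all 21 alternatives to this fit. The difference between the slopes of the paralogs was not tested.

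*Junb* (chr8:84974484-84978718, minus strand), an AP-1 factor that LIF induces early, had 78.8 and 71.2 CPM untreated, 67.5 and 59.5 CPM at 2.5 µM, 60.9 and 48.0 CPM at 5 µM, 62.4 and 55.9 CPM at 7.5 µM and 42.5 and 52.7 CPM at 10 µM. Every treated library was below both untreated ones. Its slope of −0.52 (SE 0.18) missed the threshold (adjusted p = 0.0545) and passed it without 2.5 µM replicate 2 (−0.56, adjusted p = 0.0454) or 7.5 µM replicate 1 (−0.59, adjusted p = 0.0457), and in the contrast of 7.5 and 10 µM with 0 µM (−0.47, adjusted p = 0.0413). Over the members, the 4 libraries at 7.5 and 10 µM did not overlap the 2 untreated ones for 5 of 9 genes (*Gbx2* and *Socs3* above, *Pim3*, *Lifr* and *Junb* below), against 33.3% of genes tested.

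**Figure D1:**
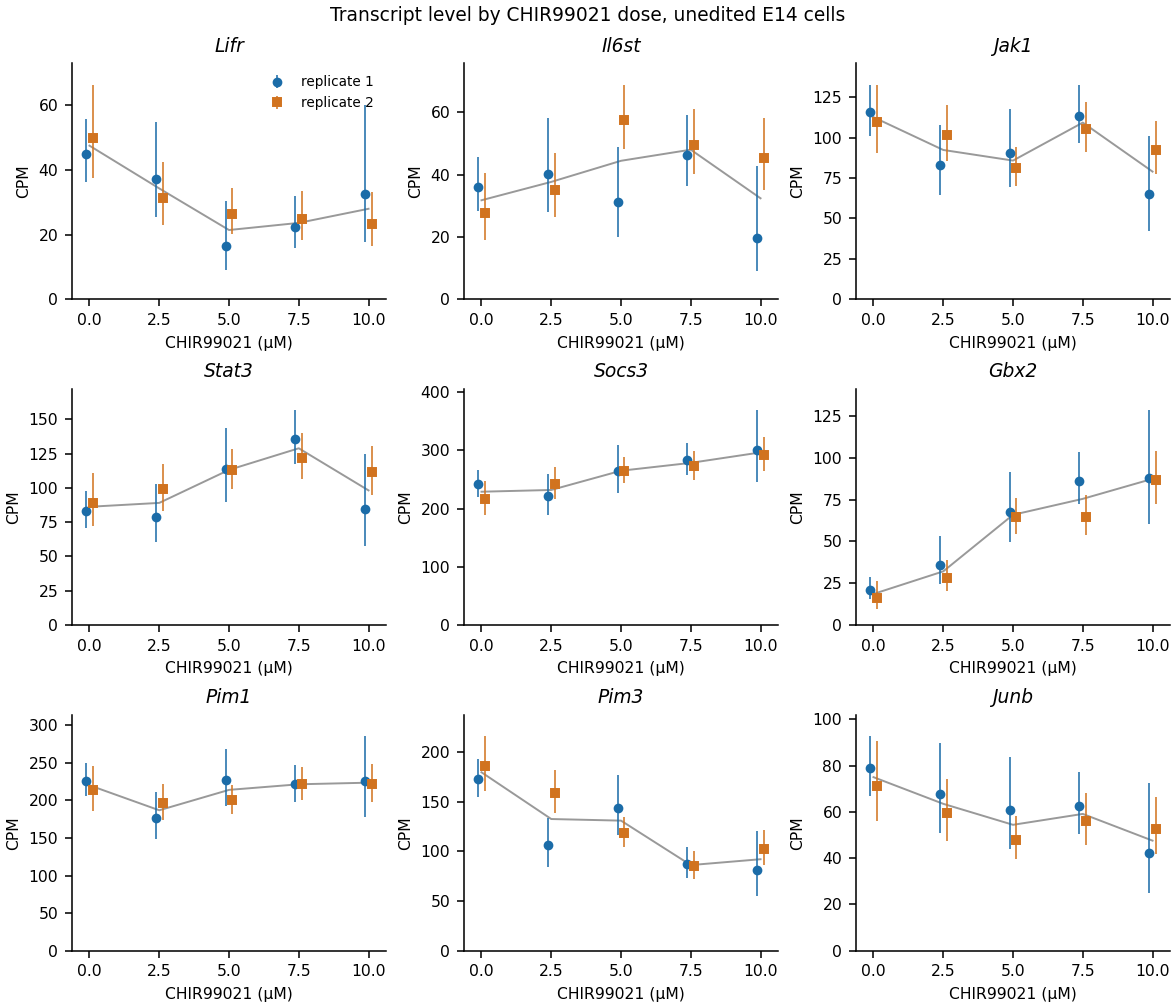
Transcript level (CPM) of each gene against CHIR99021 dose (µM) in the 10 wild-type E14 libraries. Circles and squares are replicates 1 and 2, vertical bars are Wilson 95% intervals (counting error only) and the line joins dose means. *Gbx2* climbs from 15.9 and 21.2 CPM to 86.6 and 88.2 CPM, whereas *Pim3* and *Lifr* lie lower in every treated library than in the untreated ones.

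In the clones, *Gbx2*, *Socs3*, *Stat3* and *Pim3* rose with the MES of the mutation and *Junb* fell, and *Lifr*, *Il6st*, *Jak1* and *Pim1* did not pass the test. Rising members were 4 of 9, against 9.91% of the 10145 genes tested, and falling members 1 of 9, against 13.0%. In all, 5 of 9 members were called, against 22.9% of genes. The median log2 change per 10000 MES units was 0.25 over the members and 0.00 over all genes tested. Each clone was 1 sample. MES belongs to the mutation, so the 15 clones hold 11 values, and 4 mutations entered with 2 clones each. The p-values take clones of the same mutation as independent and measure the spread among single clones. Strong and weak classes overlapped for all 9 members, that is, 0 of 9 were apart, against 3.01% of genes.

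*Lifr* ran from 28.2 CPM through a median of 52.8 to 82.6 CPM in the 6 weak clones and from 46.5 through 67.9 to 83.3 CPM in the 9 strong ones. The T41S clone H8 was lowest, and S45F clone D9 in the weak class was close to the highest strong clone, T41A clone C1. The slope was 0.27 (SE 0.11, adjusted p = 0.0807). It passed the threshold without S37F clone H2, without S45F clone D9 or without T41I clone A6 (0.30 to 0.35, adjusted p = 0.0276 to 0.0454), with codon as a factor (0.37, adjusted p = 0.0449) and with the clones of each mutation summed to 1 sample (0.34, adjusted p = 0.0371). In the strong class alone the slope was −0.43 (adjusted p = 0.304).

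*Il6st* ran from 41.2 through 47.7 to 66.6 CPM in weak and from 41.3 through 51.1 to 72.9 CPM in strong clones. The classes covered nearly the same range, and the slope was 0.04 (SE 0.08, adjusted p = 0.752). *Jak1* ran from 46.4 through 55.8 to 89.8 CPM in weak and from 44.99 through 86.2 to 100.2 CPM in strong clones, with a slope of 0.05 (SE 0.11, adjusted p = 0.823). Both the lowest and the highest *Jak1* level were in strong clones, T41I clone A6 and S37Y clone A5.

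*Stat3* ran from 60.5 through 84.7 to 115 CPM in weak and from 93.7 through 105 to 129 CPM in strong clones. The lowest 4 clones, T41N, T41S, S45C and S45P, were all weak, and S37F clone G1 was highest. *Stat3* rose by 0.25 per 10000 MES units on the log2 scale (SE 0.06, adjusted p = 0.00863). Without the T41S clone the slope was 0.24 and the adjusted p 0.0517.

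*Socs3* ran from 89.3 through 146 to 223 CPM in weak and from 161 through 269.6 to 296 CPM in strong clones. The mean was 150 ± 45.3 CPM (SD, n = 6) against 252 ± 44.1 CPM (SD, n = 9), and the overlap came from T41I clone A6 at the low end of the strong class and S45F clone C1 at the high end of the weak one. *Socs3* rose by 0.49 (SE 0.09, adjusted p = 0.000752), the steepest slope of the members, and was called without any 1 clone.

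*Gbx2* ran from 28.8 through 74.6 to 121 CPM in weak and from 80.1 through 101 to 136 CPM in strong clones. T41S clone H8 was far below the next clone, S45C clone D3 at 63.4 CPM. S37F, the mutation of highest MES, had 80.1 and 96.1 CPM, below the median of the strong class. *Gbx2* rose by 0.39 (SE 0.12, adjusted p = 0.0253). Without the T41S clone the slope was 0.19 (adjusted p = 0.275), and without the S45C clone it was 0.40 (adjusted p = 0.0641), so the call rested on the mutations of lowest MES.

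*Pim1* ran from 145 through 188 to 247 CPM in weak and from 168 through 186 to 247 CPM in strong clones, with a slope of 0.06 (SE 0.07, adjusted p = 0.557). *Pim3* ran from 96.6 through 132 to 210.2 CPM in weak and from 159.8 through 197 to 241 CPM in strong clones. All weak clones but S45F clone C1 were below the lowest strong clone. *Pim3* rose by 0.35 (SE 0.08, adjusted p = 0.00251) and was called without any 1 clone.

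*Junb* ran from 53.2 through 67.6 to 116 CPM in weak and from 34.2 through 59.3 to 63.5 CPM in strong clones. T41S clone H8 was highest, well above T41N clone D3 at 80.7 CPM, and S37F clone H2 was lowest. *Junb* fell by 0.32 (SE 0.09, adjusted p = 0.0136), but without the T41S clone its slope was −0.16 (adjusted p = 0.346).

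The T41S clone was the lowest of the 15 for *Gbx2*, *Socs3*, *Pim3*, *Lifr* and *Il6st* and the highest for *Junb*, 6 of 9 members, against 30.0% of the genes tested. It was also the clone with the lowest ES cell marker sum. Its *Axin2* level, 42.4 CPM, was above the 22.6 to 38.3 CPM of the other weak clones. It was also above the 38.9 CPM of T41A clone C1 in the strong class. Within the 9 strong clones alone no member was called, and the slopes of *Gbx2* (−0.39, adjusted p = 0.34), *Socs3* (−0.17, adjusted p = 0.690), *Pim3* (−0.07, adjusted p = 0.864), *Lifr* (−0.43, adjusted p = 0.304), *Jak1* (−0.60, adjusted p = 0.180) and *Il6st* (−0.19, adjusted p = 0.702) were then negative. Without T41S and S45C, the 2 mutations of lowest MES, no member was called either, with slopes of 0.38 for *Socs3* (adjusted p = 0.112), 0.27 for *Pim3* (adjusted p = 0.184) and 0.24 for *Stat3* (adjusted p = 0.171). Among ES cell markers, *Zfp42* (0.40, adjusted p = 0.00171) and *Esrrb* (0.60, adjusted p = 0.000899) rose with MES too, and the part of the ES cell state in the members' slopes was not tested.

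**Figure D2:**
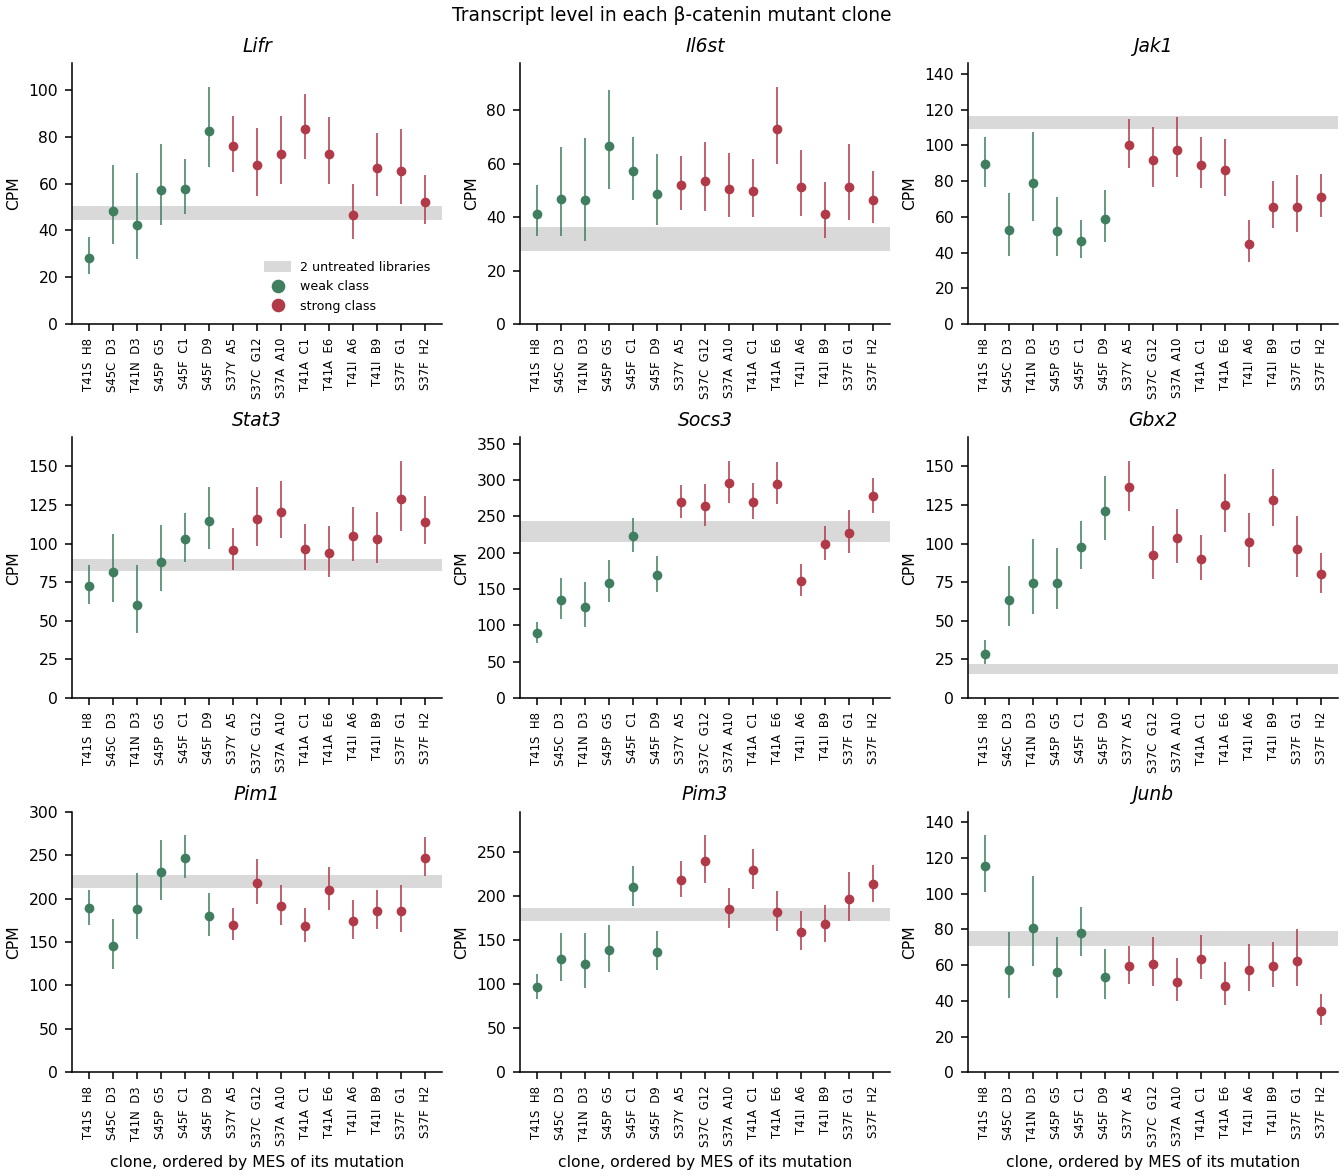
Transcript level (CPM) of each gene in the 15 clones, ordered from left to right by the MES of the mutation. Green points are the 6 weak and red points the 9 strong clones, vertical bars are Wilson 95% intervals (counting error only) and the grey band spans the 2 untreated wild-type libraries. *Gbx2* is above the band in every clone, from 28.8 CPM in T41S, and *Jak1* is below it in every clone.

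Clones of codons 45 and 37 were apart for 2 members. *Jak1* had 46.4 to 58.7 CPM in the 4 clones with a codon 45 mutation (52.5 ± 5.02 CPM, SD), 65.5 to 100.2 CPM in the 5 with a codon 37 mutation (85.2 ± 15.9 CPM, SD) and 44.99 to 89.8 CPM in the 6 with a codon 41 mutation. *Socs3* had 134 to 223 CPM at codon 45, 227 to 296 CPM at codon 37 and 89.3 to 294 CPM at codon 41. These 2 of 9 members did not overlap between codons 45 and 37, against 11.2% of genes tested. The codons differ in MES, and the split was noticed in the data and not tested.

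The 4 mutations with a second clone show how far clones of 1 genotype differed. The SD of log2 CPM within a mutation was 0.08 for *Stat3*, beside 0.29 over all clones, 0.23 against 0.52 for *Socs3* and 0.25 against 0.54 for *Gbx2*. For *Pim1* (0.25 against 0.21), *Il6st* (0.24 against 0.22) and *Junb* (0.38 against 0.38), clones of 1 mutation differed as much as clones of different mutations. The widest pair was *Junb* in S37F, with 62.4 CPM in clone G1 and 34.2 CPM in clone H2.

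Set against the untreated wild-type libraries, the 15 clones were higher for *Gbx2* and *Il6st*, and no other member passed the test. Higher members were 2 of 9, against 9.94% of the 11018 genes tested, and lower members 0 of 9, against 9.74%. In either direction this was 2 of 9, against 19.7% of genes. The median difference was −0.04 on the log2 scale over the members and 0.05 over all genes tested. The untreated libraries also enter the dose fit, so the comparisons share them. The fit took the 15 clones, of 11 mutations, as replicates of the same group. Whether the 2 untreated libraries came from separate cultures is not given by the labels. The p-values of this comparison therefore measure the spread among clones of different mutations and between those 2 libraries, where it may be technical.

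*Gbx2* had 28.8 to 136 CPM in the clones, all above the untreated 15.9 and 21.2 CPM, a difference of 2.30 on the log2 scale (SE 0.42, adjusted p = 0.00103). *Il6st* had 41.2 to 72.9 CPM, all above 27.6 and 35.9 CPM, a difference of 0.67 (SE 0.20, adjusted p = 0.0231). The *Il6st* call did not hold without untreated replicate 1 (0.87, adjusted p = 0.107) or replicate 2 (0.49, adjusted p = 0.311).

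*Jak1* had 44.99 to 100.2 CPM in the clones, all below the untreated 116 and 109.5 CPM. Its difference was −0.64 (SE 0.25, adjusted p = 0.0748), which passed the threshold without the T41S clone (−0.66, adjusted p = 0.0475), in the weak clones alone (−0.92, adjusted p = 0.0255) and in the strong clones alone (−0.53, adjusted p = 0.0498). Clones and untreated libraries did not overlap for 3 of 9 members, against 20.8% of genes.

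The remaining 6 members overlapped the untreated libraries. The difference was 0.37 for *Lifr* (adjusted p = 0.382), 0.20 for *Stat3* (adjusted p = 0.512), −0.12 for *Socs3* (adjusted p = 0.827), −0.19 for *Pim1* (adjusted p = 0.424), −0.04 for *Pim3* (adjusted p = 0.933) and −0.29 for *Junb* (adjusted p = 0.478). For *Socs3* the untreated 242 and 216 CPM lay between the medians of weak and strong clones. Every clone had a higher mitochondrial share than both untreated libraries, so clone status and that share cannot be told apart, and with the share as a covariate *Gbx2* (1.64, adjusted p = 0.162) and *Il6st* (0.60, adjusted p = 0.352) were not called.

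The dose and MES fits share no library, and their values can be set side by side. *Gbx2*, *Socs3* and *Stat3* rose in both. The dose calls of *Socs3* and *Stat3* and the MES calls of *Gbx2* and *Stat3* were each lost when 1 library or another was left out. The dose direction of *Gbx2* was fixed by its choice. *Pim3* fell by 1.04 per 10 µM but rose by 0.35 per 10000 MES units, and *Lifr* fell by 1.08 per 10 µM while its MES slope was 0.27, not called, and −0.43 in the strong class alone. *Pim3* (−0.07), *Gbx2* (−0.39) and *Socs3* (−0.17) had negative slopes in that class too, along with *Jak1* and *Il6st*. No member was called there, so the sign in that class does not set *Lifr* and *Pim3* apart. *Junb* had a negative slope in both, called only with MES. The scales differ, and the difference between the fits was not tested.

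**Figure D3:**
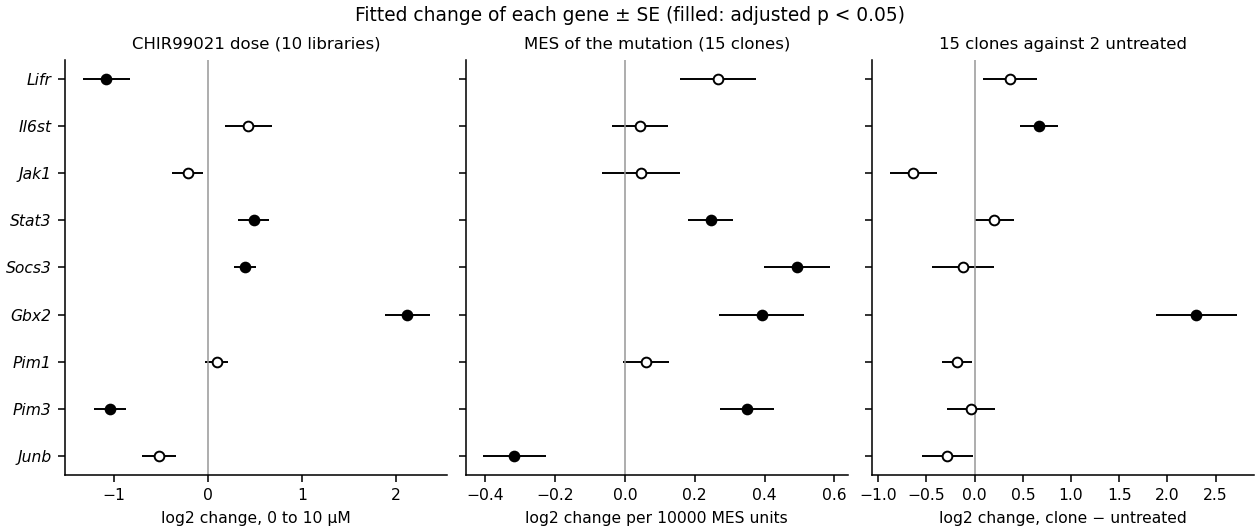
Fitted log2 change ± SE of each gene per 10 µM CHIR99021, per 10000 MES units and between clones and untreated libraries. Filled points have an adjusted p under 0.05 in edgeR's test and open points do not. *Pim3* and *Lifr* lie left of 0 in the dose panel (−1.04 and −1.08) and right of it in the MES panel (0.35 and 0.27).

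The members did not move as a block across libraries. Over the 15 clones, log2 (CPM + 1) of *Socs3* had a Pearson correlation of 0.92 with *Pim3*, 0.80 with *Lifr*, 0.73 with *Gbx2*, 0.70 with *Stat3* and −0.65 with *Junb*. Over the 10 CHIR99021 libraries it was 0.90 with *Gbx2* but −0.72 with *Pim3* and −0.66 with *Lifr*. These values describe libraries that share a dose, a mutation or the depth of the library, and carry no test.

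Among genes that averaged 20 CPM or more, those most like *Gbx2* over the 15 clones were *Dtl* (r = 0.93), *Fzd5* (0.92), *Zfp42* (0.92), *Esrrb* (0.91) and *Nr0b1* (0.91), of which the last 3 are markers or factors of the ES cell state. Over the 10 CHIR99021 libraries they were *Msx1* (0.99), *Sccpdh* (0.99), *Grsf1* (0.97), *Ctsc* (0.97) and *Cdx1* (0.97), of which *Msx1* and *Cdx1* are homeobox genes known as Wnt targets. For *Socs3* the nearest were *Stag3* (0.96), *Jam2* (0.95), *Uqcrc1* (0.95), *Klf4* (0.95) and *Cbx6* (0.945) over the clones, and *Greb1* (0.98), *Tpbg* (0.97), *B4galt6* (0.96), *Mob1b* (0.95) and *Slc38a4* (0.95) over the CHIR99021 libraries.

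The other 48 genes of the pathway list gave a mixed picture with dose. Of 34 tested, 6 rose and 6 fell, where 5.89% and 6.63% of all genes tested did. No ligand passed the filter of the dose fit. *Lif* had the most counts of them, 126 over all libraries. It was tested only between clones and untreated libraries (−0.16, adjusted p = 0.913 in edgeR's test). *Klf4*, a STAT3 target of the naive ES cell network, rose from 264 and 277 CPM untreated to 477 to 520 CPM at 7.5 and 10 µM (0.77, SE 0.16, adjusted p = 0.00102). *Tfcp2l1*, another such target, rose by 0.57 (adjusted p = 0.0300), as did *Stat5a* (1.40), *Ptpn11* (1.56), which encodes the phosphatase SHP2, *Socs6* (0.70) and *Jun* (1.02). *Cish* (−1.81), an inhibitor of the SOCS family, *Stat4* (−1.29), *Pias3* (−0.94), an inhibitor of STAT3, *Pim2* (−1.03), *Mcl1* (−0.39) and *Jund* (−0.61) fell. Of the 12 calls, only those of *Stat5a*, *Ptpn11* and *Klf4* held without any 1 library. Without untreated replicate 1, 8 were lost (adjusted p = 0.0678 to 0.253), without untreated replicate 2, 7 (0.0756 to 0.293), and without 10 µM replicate 2, 6 (0.0547 to 0.119).

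With MES, 32 of the 48 were tested, 5 rose and 4 fell, where 9.91% and 13.0% of all genes tested did, and 22.9% were called in either direction. *Klf4* rose by 0.84 per 10000 units (SE 0.12, adjusted p = 3.16e-05), with 163 to 600.0 CPM in weak and 519 to 931 CPM in strong clones. *Tfcp2l1* (0.95, adjusted p = 3.07e-06) and *Klf5* (0.48, adjusted p = 0.000394), both factors of the same network, rose as well, as did *Il6ra* (0.58), the interleukin-6 receptor chain, and *Pias4* (0.17). *Pim2* fell by 1.26 (adjusted p = 8.59e-07), from 21.3 to 95.0 CPM in weak to 6.14 to 18.0 CPM in strong clones, opposite in sign to *Pim3*. *Jun* (−1.19), *Ptpn11* (−0.45) and *Socs4* (−0.27) fell too. The calls of *Klf4*, *Klf5*, *Tfcp2l1*, *Pim2* and *Jun* held without any 1 clone, whereas those of *Il6ra*, *Socs4* and *Pias4* were each lost without at least 5 of the clones in turn. Without the T41S clone the slope of *Ptpn11* was −0.25 (adjusted p = 0.289). *Ptpn11* and *Jun* rose with dose and fell with MES.

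Against untreated libraries, 39 of the 48 were tested, 3 were higher in the clones and 7 lower, where 9.94% and 9.74% of all genes tested were, and 19.7% were called in either direction. *Myc*, known as a STAT3 and β-catenin target, had 13.0 and 13.8 CPM untreated and 37.4 to 121 CPM in the clones (2.67, SE 0.36, adjusted p = 0.000112), and it was the only one of the 10 calls that held without any 1 library. *Myc* was not called with dose (−0.34, adjusted p = 0.632) or with MES (−0.16, adjusted p = 0.326). *Sgk1* (1.44) and *Il6ra* (2.23) were the others that were higher. *Stat2* (−1.33), *Stat5b* (−1.34), *Jak3* (−0.80), *Il11ra1* (−1.43), *Pias3* (−0.87), *Fos* (−1.88) and *Jund* (−0.70) were lower, and 8 of the 10 calls were lost without untreated replicate 1 (adjusted p = 0.0600 to 0.365) and 8 without replicate 2 (0.0645 to 0.396).

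**Figure D4:**
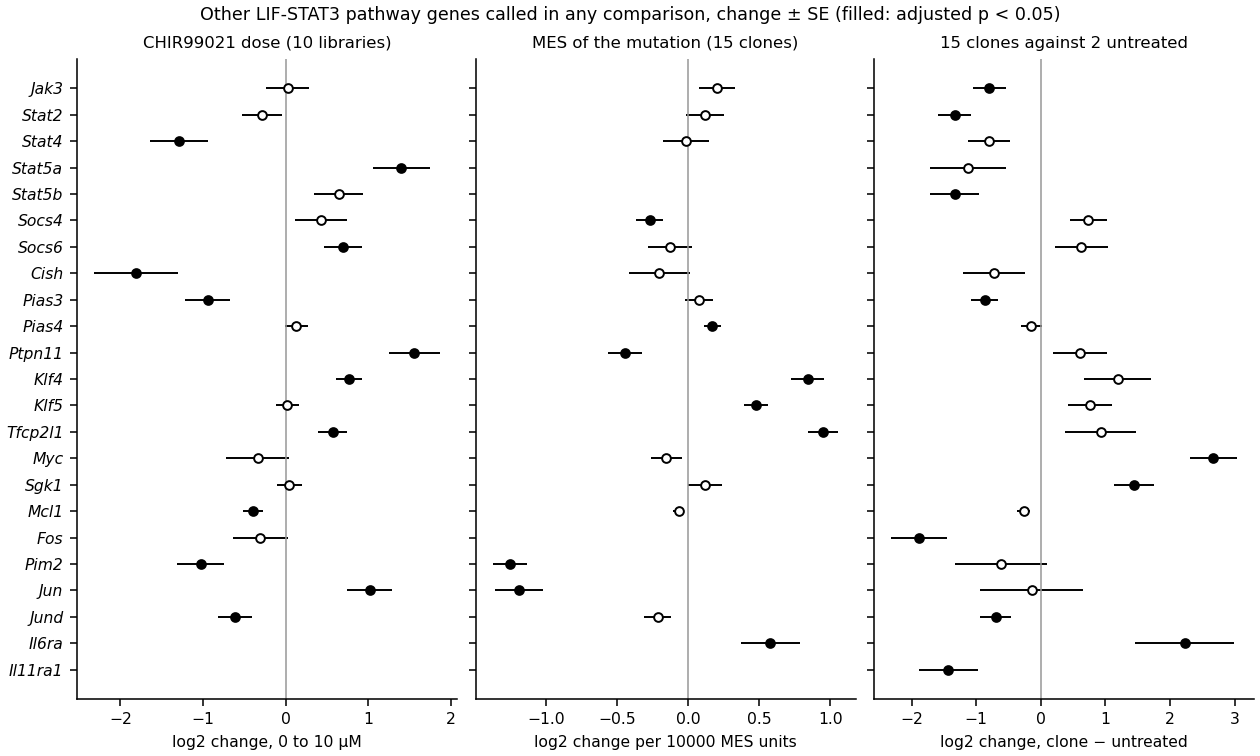
Fitted log2 change ± SE of the other pathway genes that were called in at least 1 comparison, with filled points for an adjusted p under 0.05 in edgeR's test and no point where a gene was not tested. *Klf4* and *Tfcp2l1* are right of 0 with dose (0.77 and 0.57) and with MES (0.84 and 0.95), and *Pim2* is left of 0 in both (−1.03 and −1.26).

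Some members share bases with genes on the other strand, and the strand setting of the counting is not given in the sources used here, so reads there cannot be assigned to 1 gene with certainty. In the GENCODE M21 annotation *Junb* shares 351 bases with the peroxiredoxin gene *Prdx2*, *Stat3* 72 bases with *Stat5a*, *Gbx2* 946 bases with *D130058E05Rik* and *Pim1* 1173 bases with *Gm26885*. *Jak1* shares 4 bases with *Raver2* and 104 with *Gm24468* on the other strand. It also shares 172 bases with the pseudogene *Gm12785* on its own strand. The shared bases of *Junb* and *Stat3* are at the 3′ ends of both genes, the part that 3′ RNA sequencing reads. Those of *Gbx2* and *Pim1* are at the start of both genes. *Prdx2* had a dose slope of 0.06 (adjusted p = 0.831) and fell with MES by 0.21 (adjusted p = 0.00925), the direction of *Junb*. *Stat5a* rose with dose by 1.40 (adjusted p = 0.00529), the direction of *Stat3*, and was not tested with MES. *D130058E05Rik* passed no test.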

How the data were processed

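Bulk mcSCRB-seq data of 15 clones, 1 library each, and 10 libraries of wild-type cells with or without CHIR99021 were analysed. The deposited values are counts of deduplicated reads per gene, which the authors made with UMI-tools, RNA STAR (mm10), Picard MarkDuplicates and featureCounts (version 2.0.1 per the submitters' processing notes), without normalization. Of the 48440 gene IDs, 48058 were found in GENCODE M21 (GRCm38), which gave symbols and positions. The annotation release and strand setting of the counting are not given in the sources used here.

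Libraries held 306157 to 2083398 counts, so that a count of 0 allows 3 counts, or 1.44 to 9.80 CPM, for counting error only. Samples were grouped by their labels, and MES classes by the limit of 18000. Each model was fitted across all genes with edgeR 4.0.16 (quasi-likelihood F-test after TMM normalization, low counts removed by filterByExpr at a minimum of 10, Benjamini-Hochberg adjustment, threshold 0.05). DESeq2 1.42.0 was an alternative. Replicate numbers were not taken to pair libraries. All 9 members are named with values, other pathway genes where called, and the 5 genes most like *Gbx2* and *Socs3*. The members and lists were chosen with earlier results of these data known, and the genes that overlap members, the counts of groups that do not overlap and the codon split were added after the data were seen.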

Additional observations from a re-analysis of the deposited data

Results flagged for a closer look

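In each MES class the gap between the highest or lowest clone and its neighbour was divided by the range of the class, for 9 genes in 2 classes. Of these 18 groups, 2 had a clone farther out than Dixon's 95% limit, where chance gives about 1 in 20. *Pim3* in the weak class had S45F clone C1 at 210.2 CPM, beside 96.6 to 138 CPM in the other 5 weak clones, a ratio of 0.632. *Il6st* in the strong class had T41A clone E6 at 72.9 CPM, beside 41.3 to 53.6 CPM in the other 8 strong clones, a ratio of 0.612. The second clone of each mutation, S45F clone D9 with 137 CPM of *Pim3* and T41A clone C1 with 49.7 CPM of *Il6st*, was inside the range of its class.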

How the results depend on the processing

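Over the members, 165 of 188 dose values under an alternative kept their direction and side of the threshold, 228 of 252 MES values and 225 of 234 values of the clones against untreated libraries. Genes called with dose were 1256, 288 after thinning to the smallest library, 121 without the untreated libraries and 527 to 1325 with 1 library left out (527 without untreated replicate 1, 779 without replicate 2). Members called were 5, 3 without the filter or with thinned counts, 2 without the untreated libraries and 3 to 5 with 1 library left out. Genes called with MES were 2320, 1386 thinned, 385 without the 2 mutations of lowest MES, 207 in the strong class and 1199 (without T41S) to 2388 with 1 clone left out. Members called were 5, 2 between classes, 0 without the lowest mutations, 0 in the strong class and 2 to 6 with 1 clone left out. Genes called between clones and untreated libraries were 2168, 1127 thinned, 3612 with strong clones only, 39 with the mitochondrial share as a covariate and 386 to 2667 with 1 library left out (436 without untreated replicate 2). Members called were 2, 1 thinned, 0 with the mitochondrial share and 1 to 3 with 1 library left out. The strong class alone, which has fewer samples, reversed the MES slopes of *Gbx2* (−0.39), *Socs3* (−0.17), *Pim3* (−0.073), *Pias4* (−0.072), *Ptpn11* (0.20), *Klf4* (−0.14) and *Axin2* (−0.29). The dose slope of *Jund* was 0.028 with thinned counts and that of *Tfcp2l1* −0.10 without the untreated libraries. Other causes of these changes were not tested.

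With a replicate block, 1140 genes and 4 members were called with dose, and *Stat3* (0.48, adjusted p = 0.0699) was not. The deviations of replicate 1 libraries from their dose means correlated by −0.23 to 0.19 over the 10 pairs of doses. The 3 pairs among 2.5, 5 and 10 µM had 0.15 to 0.19, and 0 µM had −0.23 to −0.18 with each of them. Replicate 1 was of the low mitochondrial set at 2.5, 5 and 10 µM, and replicate 2 at 0 µM. Since not every pair was over 0.1, the numbers were not taken to pair the libraries. The clone numbers index clones of a mutation and pair nothing. The depth of the shallowest library limits *Il6st* and *Lifr*, and thinning lowered each count of genes called.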
